A study of Mus musculus with 18 samples.

Results

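RPE/choroid of Abca4 knockout mice was compared with that of wild-type mice, both 30 days old. RPE/choroid is the pigmented epithelium behind the photoreceptors together with the vascular layer beneath it, dissected as 1 sample. The members of the comparison are 6 of the 18 libraries of the study, 3 from Abca4-/- mice and 3 from wild-type mice (WT), chosen by the genotype and tissue that the deposited gene table records. The mice of every group, per the labels, were of mixed 129SV and C57BL/6 strain, and dissection took place from 3 to 5 PM. The other RPE/choroid group, 3 libraries of knock-in mice with both Abca4 copies carrying L541P;A1038V, shared the fit and is given where its level bears on a gene. Whether each library is a different animal is not said in the labels, so a p-value here reflects the spread among these samples, which may be technical.

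Abca4 encodes a lipid flippase of photoreceptor outer segments that clears retinal bound to phosphatidylethanolamine. Where it is missing, bisretinoids form and build up as lipofuscin in the RPE, which takes up shed outer segment tips every day, and loss of the gene in humans causes Stargardt disease. The comparison asks which RPE/choroid transcripts differ in young mice without the gene, and no bisretinoid was measured in these files.

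The libraries held 21.0, 19.1 and 23.7 M assigned fragments in knockout and 18.6, 30.0 and 17.4 M in wild type, in the order of the library numbers 0, 1 and 2 of the table. All 6 libraries were male by Ddx3y and Xist. Of the 3 defining RPE markers, the retinoid isomerase gene Rpe65 lay at 955, 983 and 1190 FPKM in knockout and 1077, 1175 and 1290 FPKM in wild type, and the retinaldehyde carrier gene Rlbp1 between 383 and 503 FPKM, while the chloride channel gene Best1 was at 0.696 to 0.939 FPKM in every library. Whether this low Best1 value reflects its expression was not tested. FPKM is a level in fragments scaled for transcript length and library depth. Skeletal muscle genes summed to 7694 to 9988 FPKM in knockout and 7215 to 9738 FPKM in wild type, so the dissected tissue held more than RPE and choroid.

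Wild-type library 2 stood apart from the other 5 libraries. The summed level of 20 rod phototransduction genes was 452, 609 and 761 FPKM in knockout libraries and 303, 396 and 3039 FPKM in wild-type libraries. Against the same sum in wild-type retina, a level set across separately normalised tables, wild-type library 2 reached 10.7% and the other 5 libraries 1.07% to 2.67%. Among those 5, each knockout library lay above both wild-type libraries 0 and 1. Results are therefore given from the fit of all 9 RPE/choroid libraries and again without wild-type library 2. Lens and surface tissue varied too. The lens crystallin genes summed to 28.5, 783 and 3203 FPKM in knockout and 4071, 1654 and 1185 FPKM in wild type, so the groups overlapped. The part of lens and surface tissue in the results was not tested.

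**Figure D1:**
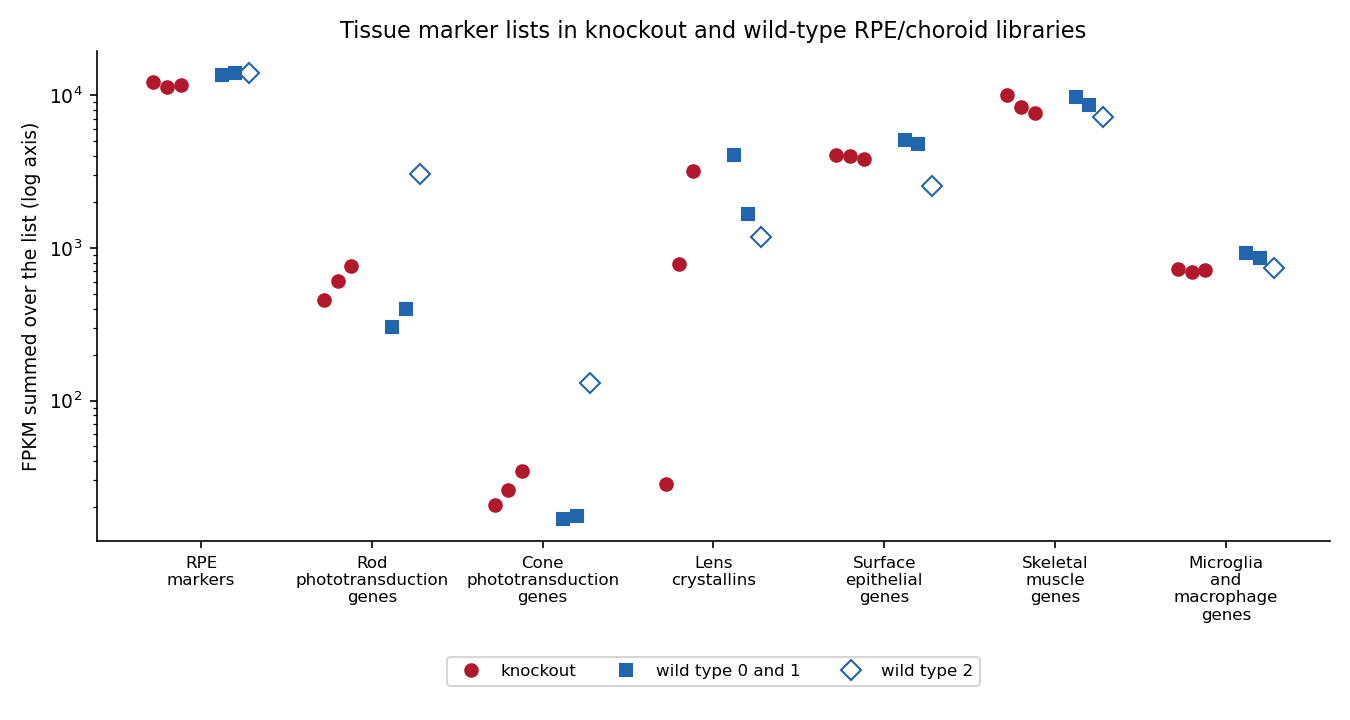
FPKM summed over the members of 7 marker lists in each knockout (circles) and wild-type (squares, open diamond for library 2) RPE/choroid library, on a log axis. Rod genes in wild-type library 2 reach 3039 FPKM, against 303 to 761 FPKM in the other 5 libraries, and lens crystallins range between 28.5 and 4071 FPKM.

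The targeted gene was still counted in every knockout library. Abca4 had 26.5, 25.6 and 26.2 FPKM in knockout and 35.4, 38.4 and 59.5 FPKM in wild type, from 3646 to 4498 and 4706 to 8556 fragments per library. The groups did not overlap, and wild-type library 2 was the highest. The log2 difference (knockout over wild type) was -0.79 with an SE of 0.169 and did not pass the threshold of 0.05 (adjusted p = 0.102, edgeR quasi-likelihood, adjusted by Benjamini-Hochberg over all tested genes, as are all adjusted p below). Without wild-type library 2 it was -0.53 (adjusted p = 0.00512), at 69.1% of wild type. Knock-in RPE/choroid held 38.6 ± 3.37 FPKM (SD, n = 3), and the authors' deposited table gives q = 0.00347 for knockout against wild type. Fragments were counted over the whole gene, so which part of the transcript remains is not given.

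Few genes were called. Of 15454 tested genes, 34 were higher and 39 lower in knockout, that is 73 genes or 0.472%, with 0.22% called higher and 0.252% called lower. At least 2-fold differences were seen for 12 of the higher and 20 of the lower genes. The libraries did not overlap in 61 of the 73 genes, against 10.4% of all tested genes. Without wild-type library 2 there were 217 higher (1.39%) and 245 lower (1.57%) genes of 15575, or 2.97% called, and 416 of these 462 did not overlap, against 25.2% of all tested genes. All 73 genes were among the 462, with the same direction. The calls depended on single libraries: 20 of the 73 genes were called whichever 1 of the 6 libraries was left out, and without wild-type library 1 the counts fell to 7 higher and 15 lower. The authors' deposited table calls 430 genes, and 51 of them are among the 73 (69.9% of the 73, 11.9% of the 430), each in the same direction. With a term for rod content in the fit of 9 libraries the counts were 190 higher and 199 lower and all 73 genes were called, but with that term and wild-type library 2 left out they were 4 higher and 3 lower, and 4 of the 73 genes were called. In the latter fit the term was -0.289, 0.228 and 0.401 in knockout and -1.07 and -0.557 in wild type. Those values do not overlap, so rod content and genotype cannot be told apart there.

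The largest rise among genes above 1 FPKM was that of Pttg1, which encodes securin, the protein that holds separase inactive until sister chromatids part. It had 64.8, 51.2 and 58.4 FPKM in knockout and 6.04, 6.34 and 4.58 FPKM in wild type, or 814, 626 and 870 against 64, 121 and 51 fragments. Every knockout library lay far above every wild-type library. The change was 10.1-fold (log2 3.34, SE 0.151, adjusted p = 1.89e-05), and 3.22 on the log2 scale with wild-type library 2 left out (adjusted p = 1.81e-06). The knock-in level was close to wild type at 6.16 ± 0.822 FPKM, and knockout exceeded it by log2 3.26 (adjusted p = 1.92e-05). Of the 26 tested cell cycle genes, Pttg1 was the 1 called, with and without wild-type library 2, and the list's median log2 was 0.04 and 0.00.

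Slfn8, a member of the interferon-inducible Schlafen family, rose at a low level. It had 1.67, 2.20 and 1.78 FPKM in knockout and 0.176, 0.217 and 0.323 FPKM in wild type. The groups lay wide apart (log2 3.11, SE 0.212, adjusted p = 2.34e-04), with knock-in at 0.193 ± 0.0734 FPKM.

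Xaf1, an interferon-inducible gene that promotes apoptosis, went the other way. Its level was 4.07, 4.55 and 4.58 FPKM in knockout and 13, 18.2 and 15.5 FPKM in wild type, and the groups did not overlap (log2 -1.83, SE 0.174, adjusted p = 0.003). Knock-in held 15.8 ± 4.38 FPKM. Xaf1 was the 1 called gene of 31 tested interferon response genes, both with and without wild-type library 2. That list had a median log2 of 0.01 with all 9 libraries and -0.08 without wild-type library 2, against -0.01 and 0.00 over all genes.

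Pttg1, Slfn8 and Xaf1 lie on chromosome 11, and their promoters are shown because the first carried the largest rise and the other two belong to interferon-inducible families yet moved in opposite directions. Each line gives the 250 bases before the RefSeq start of the gene in build GRCm38.p6, read 5′ to 3′ on the strand of the gene, with motif matches in capitals. The Pttg1 stretch is chr11:43425982-43426231 (minus strand), that of Xaf1 is chr11:72301379-72301628 (plus strand), and that of Slfn8, at the first of 2 listed starts, is chr11:83020811-83021060 (minus strand).
Pttg1: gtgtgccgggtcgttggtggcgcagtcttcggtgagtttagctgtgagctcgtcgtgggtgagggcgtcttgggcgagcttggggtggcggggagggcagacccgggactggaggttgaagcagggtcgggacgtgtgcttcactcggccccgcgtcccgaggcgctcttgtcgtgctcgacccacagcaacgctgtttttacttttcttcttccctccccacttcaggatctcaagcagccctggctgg
Xaf1: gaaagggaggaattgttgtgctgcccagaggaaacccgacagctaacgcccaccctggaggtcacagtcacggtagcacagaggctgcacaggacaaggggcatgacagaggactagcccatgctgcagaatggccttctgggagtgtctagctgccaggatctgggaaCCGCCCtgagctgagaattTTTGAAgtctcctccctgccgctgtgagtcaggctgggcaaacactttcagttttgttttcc
Slfn8: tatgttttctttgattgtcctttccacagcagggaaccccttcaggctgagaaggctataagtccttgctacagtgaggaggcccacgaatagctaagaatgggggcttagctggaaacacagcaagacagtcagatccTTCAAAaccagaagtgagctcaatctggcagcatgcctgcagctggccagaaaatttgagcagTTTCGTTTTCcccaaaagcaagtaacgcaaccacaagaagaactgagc
The motifs searched on both strands were the interferon-stimulated response element (GAAA, any 2 bases, GAAA), the CCAAT box CCAAT, the cell-cycle homology region TTTGAA and the GC box GGGCGG. The interferon-stimulated response element was matched in Slfn8, beginning 48 bases before the start (position -48), and in 2.98% of the 32851 promoters of the table. The cell-cycle homology region was matched in Slfn8 (position -111) and Xaf1 (position -62), and the GC box in Xaf1 (position -81), against 16.0% and 32.7% of all promoters. The CCAAT box, in 33.8% of all promoters, was in none of these 3 windows, and the Pttg1 window held none of the 4 motifs. A match describes letters in the window and nothing about a factor.

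Snx31 and Lgals7 had the next largest rises among the named genes. Snx31, which encodes a sorting nexin, had 13.6, 20.9 and 15.4 FPKM in knockout and 2.43, 2.27 and 2.36 FPKM in wild type (log2 2.82, SE 0.223, adjusted p = 0.00132). Lgals7, a galectin of stratified epithelia, had 25.2, 26.8 and 19.9 FPKM in knockout and 4.52, 3.83 and 1.71 FPKM in wild type (log2 2.81, SE 0.321, adjusted p = 0.00545). For both genes the lowest knockout library lay well above the highest wild-type library, and both calls held without each single library.

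Lgals7 was the 1 called gene of 18 tested surface epithelial genes, whose median log2 was -0.01 and whose summed level was 4044, 4006 and 3790 FPKM in knockout and 5109, 4793 and 2536 FPKM in wild type. Leaving out wild-type library 2, the keratin genes Krt14 (log2 -0.55, adjusted p = 0.00258) and Krt19 (log2 -0.46, adjusted p = 0.0245) fell, so 1 of 18 members rose and 2 fell. Of all genes tested in that fit, 1.39% were called higher and 1.57% lower.

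Rab3b, a small GTPase of regulated secretion, had 1.77, 3.88 and 3.24 FPKM in knockout and 0.303, 0.567 and 0.694 FPKM in wild type (log2 2.51, adjusted p = 0.0184). Rhbdl2, a rhomboid protease, averaged 2.90 FPKM in knockout and 0.82 FPKM in wild type (log2 1.78, adjusted p = 0.0271). Neither gene overlapped between the groups, but each lost its call when certain single libraries were left out, with adjusted p up to 0.0852 for Rab3b and 0.148 for Rhbdl2.

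Further genes among the 15 largest rises were Mrps12, a mitochondrial ribosomal protein (log2 0.99, adjusted p = 0.0316), the phosphatase inhibitor gene Ppp1r1b (0.83, 0.0406), C4b (0.80, 0.0443), Nov, which encodes the matricellular protein CCN3 (0.80, 0.00351), Gfer, a sulfhydryl oxidase of mitochondria (0.73, 0.0252), Sned1 (0.67, 0.0177), the Wnt receptor gene Fzd6 (0.66, 0.0188) and Kctd11 (0.48, 0.0484), each value being a log2 difference and its adjusted p. Nov kept its call without each single library, while the others lost it without at least 2 of the 6. Apart from these, Nlrp1c-ps and Skint3 were called at under 1 FPKM, with 32, 18 and 30 and 17, 27 and 29 fragments in knockout libraries and 0 in each wild-type library. Against a floor of 3 fragments over the wild-type group they were at least 27.6-fold and 25.2-fold higher. Each lost its call without 5 of the 6 libraries (adjusted p up to 0.151 and 0.18), and the authors' deposited table marks both as not tested.

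**Figure D2:**
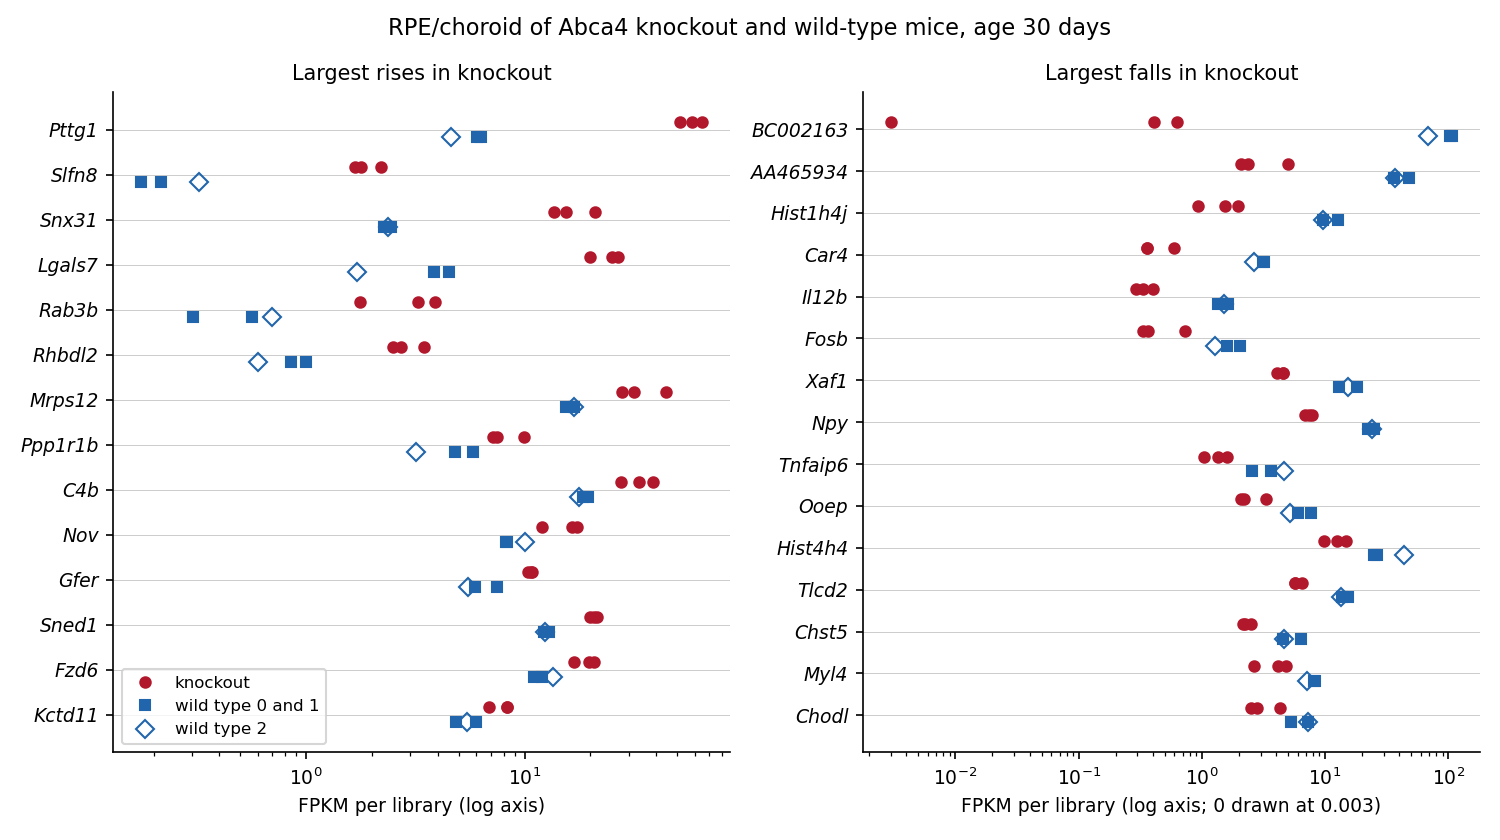
FPKM per library on log axes for 14 of the 15 largest rises (left) and the 15 largest falls (right) in knockout RPE/choroid, with knockout as circles, wild-type libraries 0 and 1 as squares and wild-type library 2 as an open diamond. The groups do not overlap for any of these genes, which the naming rule required. Pttg1 stands at 51.2 to 64.8 FPKM in knockout and 4.58 to 6.34 FPKM in wild type, and BC002163 at 0 to 0.633 FPKM in knockout and 69.0 to 107 FPKM in wild type.

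The largest falls were those of BC002163, which all but disappeared in knockout RPE/choroid, and of AA465934, which stayed at 7.61% of wild type. BC002163 had 0, 0.633 and 0.409 FPKM in knockout and 103, 107 and 69.0 FPKM in wild type, from 0, 4 and 4 against 672, 1023 and 472 fragments. Knockout libraries were at or near 0, and knock-in held 96.9 ± 4.11 FPKM (log2 -7.97, SE 0.34, adjusted p = 2.18e-05). In retina BC002163 varied widely in knockout, at 15.5 ± 26.1 FPKM against 90.6 ± 5.05 FPKM in wild type. That change did not pass (log2 -2.37, adjusted p = 0.443), nor did the difference between tissues (adjusted p = 0.245). AA465934, a long noncoding RNA gene per RefSeq, had 4.99, 2.39 and 2.09 FPKM in knockout and 47.6, 36.0 and 36.9 FPKM in wild type (log2 -3.72, SE 0.214, adjusted p = 6.15e-05). Knock-in held 33.7 ± 5.58 FPKM of AA465934. Both stayed called with any 1 library left out.

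Car4, a membrane-bound carbonic anhydrase known from the choriocapillaris, fell as the 1 called gene of 22 tested carbonic anhydrase and ion transport genes with all 9 libraries. It had 0.356, 0.599 and 0.361 FPKM in knockout and 3.12, 3.22 and 2.66 FPKM in wild type, which did not overlap (log2 -2.81, SE 0.254, adjusted p = 0.00139). Knock-in held 2.66 ± 0.532 FPKM. Endothelium and pericyte genes had 0 of 21 called with and without wild-type library 2 and a median log2 of 0.10 and 0.08. Of all tested genes 0.472% and 2.97% were called in these fits, so 0 of 21 does not show that those genes were unchanged. In bulk tissue, fewer cells of a type and less RNA per cell cannot be told apart.

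Npy, which encodes neuropeptide Y, had 7.47, 7.80 and 6.84 FPKM in knockout and 25.2, 22.2 and 23.9 FPKM in wild type. The spread within each group was small beside the difference (log2 -1.74, SE 0.135, adjusted p = 4.88e-04), and knock-in lay between them at 17.7 ± 3.90 FPKM. Tlcd2, a membrane lipid gene, had 6.55, 5.75 and 5.66 FPKM in knockout and 15.4, 13.7 and 13.5 FPKM in wild type (log2 -1.31, SE 0.0956, adjusted p = 3.55e-04). Npy and Tlcd2 stayed called with any 1 library left out.

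Il12b, which encodes the shared subunit of interleukins IL-12 and IL-23, fell at a low level to 0.402, 0.291 and 0.335 FPKM in knockout, against 1.36, 1.62 and 1.53 FPKM in wild type (log2 -2.09, SE 0.221, adjusted p = 0.00336). Tnfaip6, an inducible hyaluronan-binding protein, had 1.36, 1.05 and 1.61 FPKM in knockout and 2.54, 3.63 and 4.61 FPKM in wild type (log2 -1.38, adjusted p = 0.0188). Knockout libraries lay below wild-type libraries for both genes, and Tnfaip6 lost its call without knockout library 1 or 2 or wild-type library 1 (adjusted p up to 0.11).

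Fosb, an AP-1 subunit gene induced within minutes of a stimulus, had 0.724, 0.366 and 0.333 FPKM in knockout and 2.04, 1.60 and 1.27 FPKM in wild type (log2 -1.88, SE 0.263, adjusted p = 0.0188). It was the 1 called gene of 30 tested immediate early genes, where 0.252% of all tested genes were called lower. Of the 30, 24 had a negative log2, and the median was -0.21 against -0.01 over all genes. Without wild-type library 2, 2 of 31 were called lower, against 1.57% of all tested genes. In that fit 27 had a negative log2, and the median was -0.28 against 0.00 over all genes. Jun fell as well (log2 -0.43, adjusted p = 0.0245) once wild-type library 2 was left out. Fos had 14, 5.44 and 6.94 FPKM in knockout and 16.1, 10.7 and 10.3 FPKM in wild type, which overlapped (adjusted p = 0.462). Fosb lost its call without knockout library 1 or 2 or wild-type library 0 or 1 (adjusted p up to 0.119).

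The remaining genes of the 15 largest falls were the histone genes Hist1h4j (log2 -2.96, adjusted p = 0.0316) and Hist4h4 (-1.31, 0.0403), Ooep (-1.35, 0.0445), the sulfotransferase gene Chst5 (-1.21, 0.0125), the atrial myosin light chain gene Myl4 (-1.08, 0.023) and Chodl (-1.04, 0.0434), each value being a log2 difference and its adjusted p. Each of these 6 lost its call without at least 2 of the 6 libraries. The histone genes belong to a family of near-identical copies among which reads can be split, so their values are uncertain.

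Among the other called genes, which were picked for naming after their values were seen, Ppt1 kept its call without each single library. It encodes the lysosomal palmitoyl-protein thioesterase whose loss causes a neuronal ceroid lipofuscinosis, and it had 47.7, 46.5 and 67.7 FPKM in knockout and 74.2, 81.6 and 99.7 FPKM in wild type. The libraries did not overlap (log2 -0.65, SE 0.0578, adjusted p = 0.00132). Bcat1, the cytosolic branched-chain aminotransferase (log2 -0.59, adjusted p = 0.00191), Acbd4 (log2 -0.76, adjusted p = 0.00191) and Plbd1 (log2 -0.82, adjusted p = 0.00423) also fell with each library left out. Alad (log2 -0.66, adjusted p = 0.023) and Blvrb (log2 -0.60, adjusted p = 0.017), which act in haem synthesis and breakdown, fell with overlapping libraries. Alad lies 0.007 Mb from Hdhd3 in the mm9 positions of the table, and both fell. Ccdc75, which fell by 0.55 on the log2 scale, lies 0.0022 Mb from Gm6548, which rose by 1.09.

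RPE identity genes held no call with the full set of libraries. Of 30 tested RPE markers 0 were called with all 9 libraries, the log2 differences ran between -0.41 and 0.21, and the median was -0.11, against -0.01 over all genes. Their summed level was 12171, 11291 and 11579 FPKM in knockout and 13597, 13959 and 13906 FPKM in wild type, so each knockout library lay below each wild-type library. A sum follows its most abundant members. Ttr alone averaged 3938 FPKM in knockout and 5176 FPKM in wild type, and the authors' deposited table does not call it (q = 0.846). Taken gene by gene, the groups lacked overlap in 10.4% of all tested genes. Rpe65 had a log2 difference of -0.14 (adjusted p = 0.58) and Rgr, the retinal G protein-coupled receptor of the RPE, of -0.24 (adjusted p = 0.333). Once wild-type library 2 was left out, Bsg, the chaperone subunit of lactate transporters (log2 -0.38, adjusted p = 0.0499), and Krt8 (log2 -0.44, adjusted p = 0.0166) fell, and Atp1b2 rose (log2 0.37, adjusted p = 0.0493). Of the 30 markers 6.67% thus fell and 3.33% rose, against 1.57% and 1.39% of all tested genes. The 17 tested visual cycle genes, the 17 pigment genes and the 6 melanocyte genes had 0 calls in both fits, with medians of -0.14, -0.08 and -0.09.

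Pathways that serve the uptake and breakdown of outer segments held few calls. Lysosome and autophagy genes had 0 of 35 called in both fits (median log2 -0.05 and -0.08), among them Ctsd, the cathepsin D gene, with 1168, 1079 and 1048 FPKM in knockout and 1270, 1271 and 1196 FPKM in wild type (log2 -0.20, adjusted p = 0.301). Each knockout library lay below each wild-type library for Ctsd, and the groups lacked overlap in 10.4% of all tested genes. Phagocytosis genes had 0 of 15 called with all 9 libraries. Without wild-type library 2, where 1.39% of all tested genes were called higher and 1.57% lower, 2 of 15 rose. These were Mertk, the receptor that triggers uptake of shed outer segments, with 15.1, 16.6 and 17.7 FPKM in knockout and 12.4, 13.8 and 14.5 FPKM in wild type (log2 0.28, adjusted p = 0.035), and Tub, whose wild-type library 2 was at 7.32 FPKM against 0.972 and 1.12 FPKM in the other wild-type libraries. Unfolded protein response genes (0 of 32), heat shock chaperones (0 of 18), fatty acid oxidation genes (0 of 35) and lipid efflux genes (0 of 19) had no call in either fit, with medians between -0.05 and 0.10 with all 9 libraries. Oxidative stress genes had 0 of 29 called with all 9 libraries. Leaving out wild-type library 2, the cystine transporter gene Slc7a11 rose (log2 0.46, adjusted p = 0.0196), and Txnrd1 (log2 -0.25, adjusted p = 0.0441) and Gpx1 (log2 -0.30, adjusted p = 0.0499) fell.

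C4b, which encodes a component of the classical and lectin pathways, had 33.3, 27.6 and 38.5 FPKM in knockout and 18.5, 19.6 and 17.7 FPKM in wild type. The groups were clearly apart (log2 0.80, SE 0.131, adjusted p = 0.0443, and 0.0454 without wild-type library 2), although the call was lost without knockout library 0 or wild-type library 0 or 1 (adjusted p up to 0.131). It was the 1 called member of 15 tested complement activation genes with all 9 libraries. Once wild-type library 2 was left out, 4 members fell: C1qa, C1qb and C1qc, the chains that start the classical pathway, and Cfp, the properdin gene, where 1.57% of all tested genes were called lower. C1qa had 43.5, 39.7 and 34.9 FPKM in knockout and 63.6, 50.0 and 35.3 FPKM in wild type (log2 -0.38, adjusted p = 0.161, and -0.49, adjusted p = 0.0166, without wild-type library 2). The lowest wild-type value was that of library 2, just above the lowest knockout value. Complement regulators had 0 of 9 called in both fits.

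Genes of microglia and macrophages, where C1q is made, had calls in the fit without wild-type library 2 alone. With all 9 libraries 0 of 25 were called, with a median log2 of -0.20. In the fit of the other 8 libraries 6 fell, 0 rose and 19 did not pass, with a median of -0.36 against 0.00 over all genes, and the background was 1.57% called lower. The 6 were C1qa, C1qb, C1qc, the lysozyme gene Lyz2 (log2 -0.63, adjusted p = 0.0364), Emr1, which encodes the surface marker F4/80 (log2 -0.42, adjusted p = 0.0254), and Lgals3 (log2 -0.49, adjusted p = 0.0244). The list summed to 725, 693 and 714 FPKM in knockout and 931, 864 and 735 FPKM in wild type. The sum of wild-type library 2 thus lay just above the highest knockout sum. A sum follows its most abundant members, and gene by gene the groups lacked overlap in 10.4% of all tested genes. Of the mast cell genes, Cpa3 (log2 -0.56, adjusted p = 0.0364) and Cma1 (log2 -0.53, adjusted p = 0.0477) fell without wild-type library 2, and 0 of 10 tested T, B and mast cell genes were called with it. Antigen presentation genes had 0 of 21 called in both fits.

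Photoreceptor genes reversed with wild-type library 2. Rod genes had a median log2 of -1.09 with all 9 libraries, where 19 of 19 were negative, and 1.21 without that library, where 19 of 19 were positive, and 0 were called in either fit. Cone genes had medians of -1.24 and 1.36, and photoreceptor structure genes -1.06 and 1.29. Leaving out that library, 2 of 10 cone genes rose, Arr3 (cone arrestin) and Gnb3. So did 2 of 24 structure genes, Kcnv2 and Samd7, where 1.39% of all tested genes were called higher. The level in wild-type retina was also set against that in wild-type RPE/choroid libraries 0 and 1. Of the 217 genes higher without wild-type library 2, 69 (31.8%) lay at least 4-fold higher in retina, against 9.17% of all tested genes. Of the 245 lower genes 2 did (0.816%), and of the 73 genes called with all 9 libraries 0 did. Libraries 0 and 1 also entered these calls, so the shares were partly fixed by the calling and are not separate support. The rod sums of the knockout libraries, given above, exceeded those of wild-type libraries 0 and 1, so retinal content and genotype cannot be told apart for these genes.

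**Figure D3:**
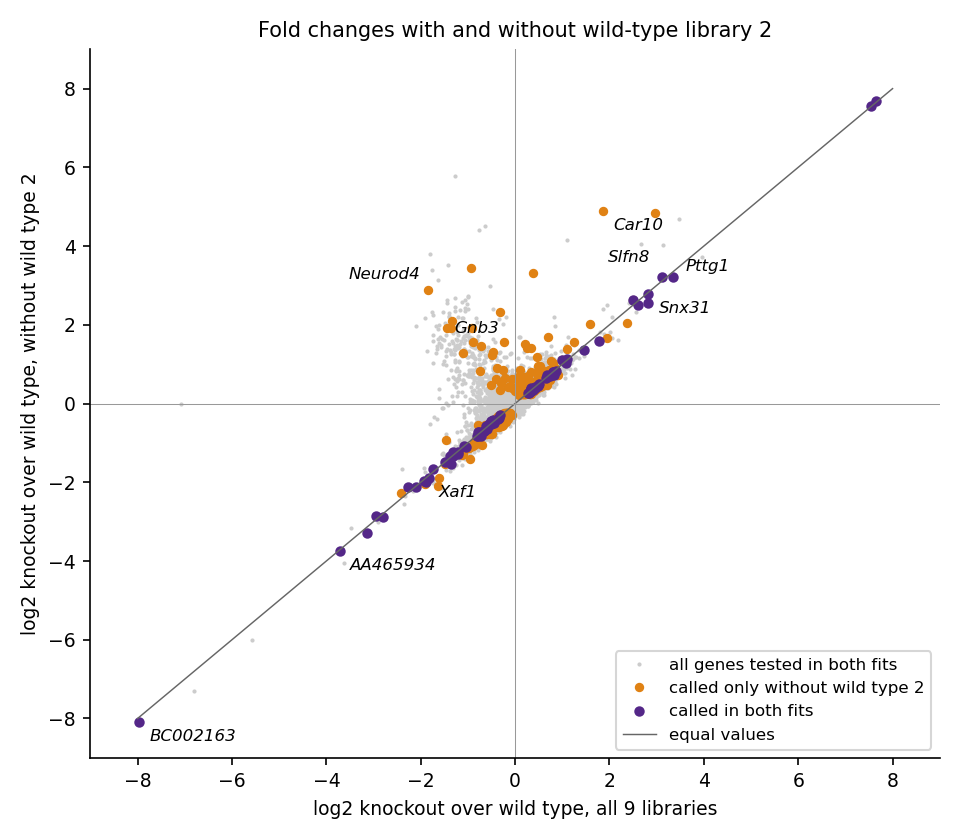
Log2 difference (knockout over wild type) with all 9 libraries on the x axis and without wild-type library 2 on the y axis, for every gene tested in both fits (grey), genes called without wild-type library 2 alone (orange) and genes called in both fits (purple). The 73 purple genes lie near the line of equal values, while a cloud of genes with negative values on the x axis and positive values on the y axis holds the photoreceptor genes.

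Car10, a carbonic anhydrase-related protein gene, rose most among the named genes called without wild-type library 2 alone. It had 3.46, 4.68 and 4.04 FPKM in knockout and 0.135, 0.121 and 3.64 FPKM in wild type (log2 4.89, adjusted p = 1.23e-04 without wild-type library 2, and 1.85, adjusted p = 0.461 with it). Wild-type library 2 lay inside the range of the knockout libraries, and knock-in held 0.132 ± 0.0883 FPKM. Other rises called without that library were of Neurod4, Mmd2, Samd7, Ankrd33, Mlc1 and Gnb3, in each of which wild-type library 2 lay above every knockout library. In Cyp2b10, Lgals4 and Apoc1 the groups did not overlap even with it, as was so for 10.4% of all tested genes. Apoc1, an apolipoprotein gene, had 17.5, 32.1 and 24.2 FPKM in knockout and 7.83, 8.10 and 3.52 FPKM in wild type (log2 1.94, adjusted p = 0.0512 with all 9 libraries, and 1.66, adjusted p = 0.0244, without wild-type library 2).

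Falls called without wild-type library 2 alone included Slc39a2, a zinc transporter gene (log2 -2.28, adjusted p = 0.035), Hist1h2bn (-2.05, 0.03), Nnmt, nicotinamide N-methyltransferase (-1.90, 0.011), Crabp1, a retinoic acid binding protein (-1.54, 0.0443), the serotonin transporter gene Slc6a4 (-1.30, 0.0239) and the myeloid genes Cd300lb (-1.28, 0.0254), Clec12a (-1.25, 0.0202) and Gmfg (-1.14, 0.0198), each value being a log2 difference without that library and its adjusted p. The naming rule required that knockout libraries not overlap wild-type libraries 0 and 1. These 8 did not overlap between the groups even with wild-type library 2, as was so for 10.4% of all tested genes. Abpe (-2.10, 0.018) and Apbh (-1.41, 0.00768) overlapped, since wild-type library 2 held 0.895 and 3.74 FPKM of them.

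Protein, energy and sterol metabolism genes had a few falls. Leaving out wild-type library 2, 3 of 31 proteasome genes (Psma7, Psmb2, Psmb5), 4 of 36 respiratory chain genes (Ndufa4, Ndufb3, Ndufb5, Cox7a2) and 2 of 23 cholesterol synthesis genes (Sqle, Ebp) fell and 0 rose, while with all 9 libraries 0 were called in each of these lists. Of all genes tested without that library 1.57% were called lower. The medians were -0.14, -0.12 and -0.25 without that library and -0.09, -0.10 and -0.19 with it. Sqle, squalene epoxidase, had 56.5, 38.6 and 46.7 FPKM in knockout and 74.0, 73.4 and 64.4 FPKM in wild type, which did not overlap (log2 -0.60, adjusted p = 0.132, and -0.71, adjusted p = 0.0454, without wild-type library 2). Ribosomal protein genes, picked by symbol after the values were seen, had 40 of 83 lower and 0 higher without wild-type library 2 (48.2%, against 1.57% of all tested genes, median log2 -0.30) and 0 of 83 called with it (median -0.21). Genes lower without that library had shorter transcripts, with a median longest transcript of 1743 bases for the lower, 5249 bases for the higher and 3385 bases for all tested genes. With all 9 libraries the medians were 2045, 4325 and 3395.5 bases. The part of transcript length in the result was not tested.

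**Figure D4:**
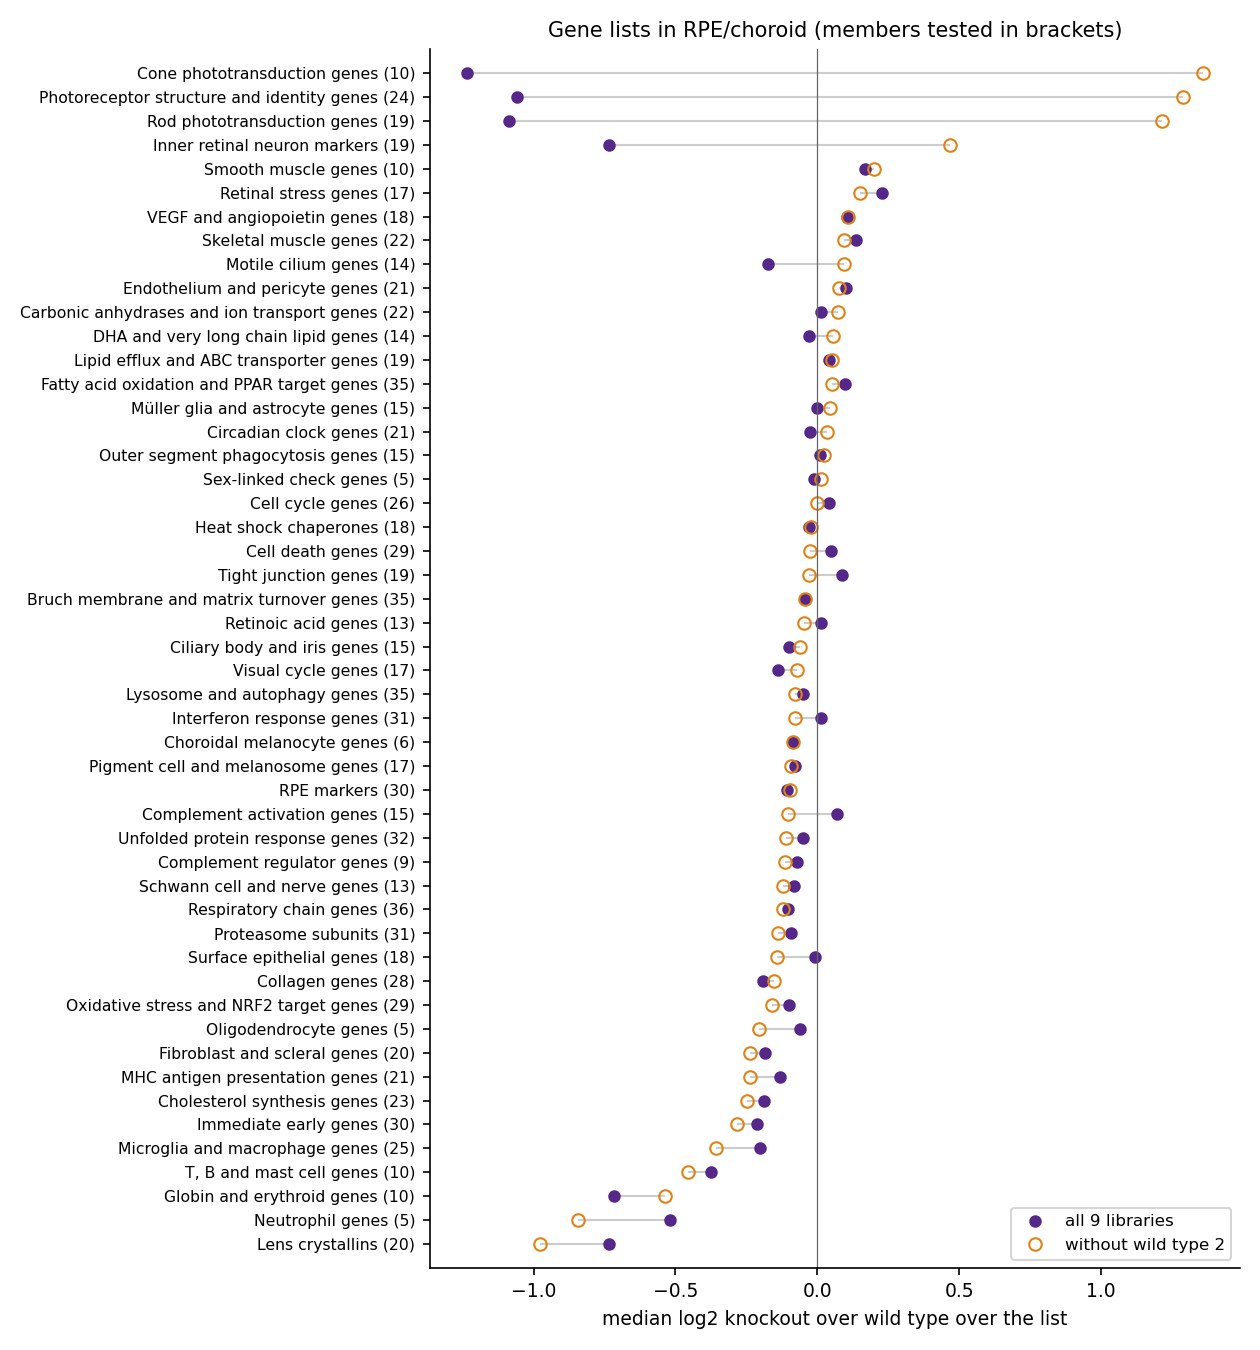
Median log2 difference (knockout over wild type) over each gene list with at least 5 tested members, with all 9 libraries (filled) and without wild-type library 2 (open). Rod, cone, photoreceptor structure and inner retinal lists change sign between the fits, with rod genes at -1.09 and 1.21, as do some lists with medians nearer 0. Lens crystallins (-0.73 and -0.98), globin and erythroid genes (-0.72 and -0.54) and neutrophil genes (-0.52 and -0.84) lie below 0 in both fits. Most other lists lie near 0.

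Of the other lists, few held a call. Over the 50 lists, 8 had a called member with all 9 libraries and none had 3, and without wild-type library 2, 21 had one and 8 had at least 3. Collagen, Bruch membrane, fibroblast, endothelial, smooth muscle, skeletal muscle, tight junction, circadian clock and cell death genes had 0 calls in both fits. Epas1, the hypoxia-inducible factor of endothelium, rose without wild-type library 2 (98.5, 88.2 and 99.8 FPKM in knockout, 70.8, 78.3 and 62.6 FPKM in wild type, log2 0.33, adjusted p = 0.0473). Gfap, an intermediate filament gene of astrocytes and reactive Müller glia, had 12.6, 10.9 and 8.93 FPKM in knockout and 0.314, 0.971 and 2.21 FPKM in wild type. The groups did not overlap, but the change did not pass (log2 3.14, SE 1.13, adjusted p = 0.264), and knock-in libraries spread widely at 10.5 ± 9.38 FPKM. The authors' deposited table gives q = 0.00347 for Gfap.

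The called genes were not spread evenly over the genome. In the mm9 positions of the deposited tables, chromosome 11 held 16 of the 73 called genes (21.9%) and 8.15% of the tested genes, so 1.27% of its 1260 tested genes were called against 0.472% overall. They include Pttg1 and Il12b, 0.974 Mb apart, and Slfn8, AA465934 and Car4, which follow each other at 0.271 and 1.66 Mb. The members of these runs moved in both directions. In the fit of 8 libraries chromosome 11 held 64 of 462 (5.04% of its tested genes, against 2.97%). Chromosomes 4 and 15 were close to it there, at 4.73% and 4.38%. Chromosome 3, which carries Abca4, had 0 of 771 called with all 9 libraries, and of 86 tested genes within 10 Mb of Abca4 0 were called. In the fit of 8 libraries 4 of 87 such genes were called, and 25 of 780 over the whole of chromosome 3 (3.21%). The labels give a mixed strain for all groups, and differences in strain origin along a chromosome were not tested.

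**Figure D5:**
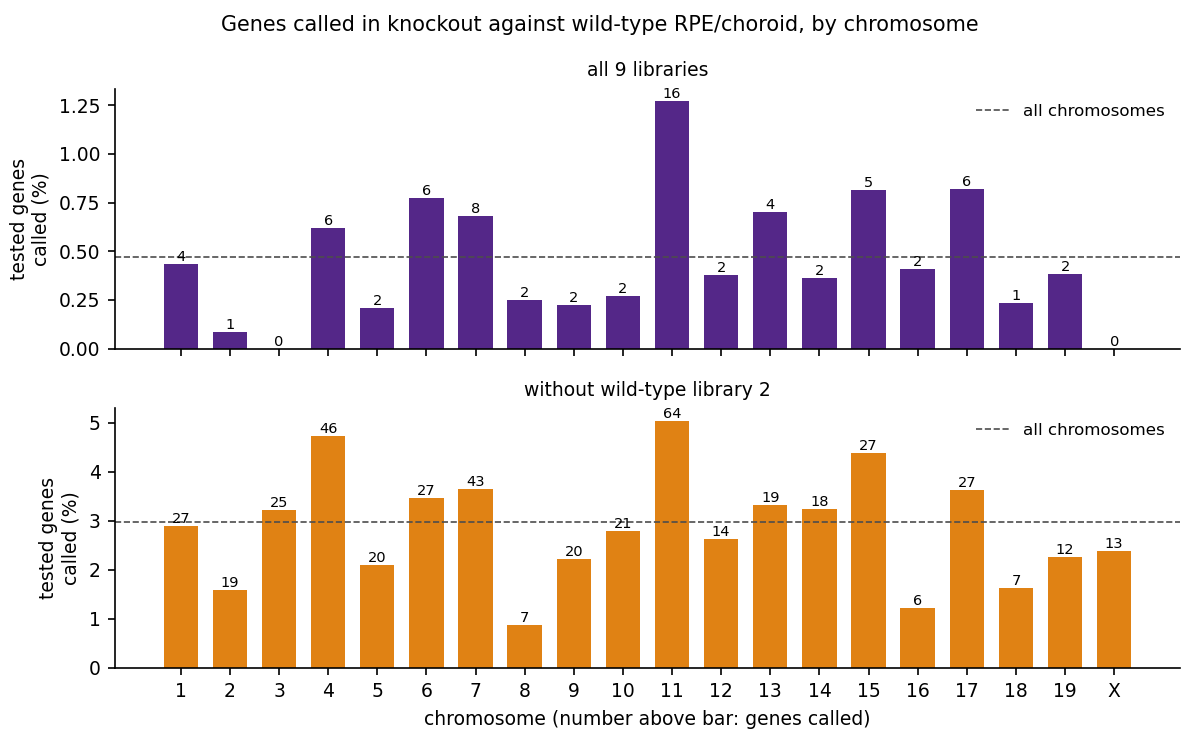
Share of tested genes called in knockout against wild-type RPE/choroid on each chromosome, with all 9 libraries (top) and without wild-type library 2 (bottom), with the number of called genes above each bar and the share over all chromosomes as a dashed line. Chromosome 11 is highest in both, at 1.27% and 5.04%.

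The same genotypes were compared in retina in other libraries. Of the 73 genes, 57 were tested in retina and 9 were called there, all with the same direction (15.8% of the 57, 12.3% of the 73 and 6.25% of the 144 genes called in retina). Of all 14699 genes tested in retina 0.98% were called. They were Pttg1, Gm6548, Qpct, Polr3d, Ccdc75, Hdhd3, Ppt1, Tuba1c and Tnfaip6. Pttg1 in retina had 20.4 ± 11.4 FPKM in knockout and 0.758 ± 0.247 FPKM in wild type (SD, n = 3 each). A direct test of the difference between tissues, made as an interaction over the 18 libraries, called 22 of 16222 genes (0.136%), and 337 of 16348 (2.06%) without wild-type library 2. Pttg1 was not among the 22 (adjusted p = 0.434). Npy, Car4 and AA465934 were, with changes that were larger in RPE/choroid.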

How the data were processed

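Per the labels' protocols, total RNA of retina and RPE/choroid was depleted of ribosomal RNA, made into stranded libraries and read as pairs of 100 bases. The submitters' processing notes name mm9, TopHat, Bowtie2 and Cufflinks. Their versions, the annotation and the use of strand in counting are not stated. The deposited gene table holds, per the file headers, unscaled fragments per gene and library, which are expected counts (98.4% whole) and were rounded here. FPKM in that table were scaled by the authors. The authors' deposited comparison table holds p-values and q-values. Labels and tables number libraries differently and nothing links the numbers, so libraries carry the table's numbers 0, 1 and 2.

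The expected counts of 9 RPE/choroid libraries entered edgeR 4.0.16 (R 4.3.3; quasi-likelihood, robust, TMM, filterByExpr) with a term per genotype. P-values were adjusted by Benjamini-Hochberg over every tested gene and called under 0.05. The tissue difference used an interaction over 18 libraries. The members, the 50 lists and the tests were chosen with earlier results of these data known. Named are Abca4, up to 15 rises and 15 falls of greatest size that were called, lacked overlap between the groups and had a mean of at least 1 FPKM in a group (small RNA, Rik, Gm, LOC, -ps and sex-linked genes left out), 10 of each called without wild-type library 2 alone, and for each list at most 4 members that were called, otherwise 2 by smallest p. Transcript lengths are from GENCODE, matched by symbol for 85.3% to 93.5% of each gene set, and promoters from RefSeq (GRCm38.p6). On simulated counts the fit of 9 libraries found 37.3%, 70.1% and 95.5% of changes of 1.5-, 2- and 4-fold, with 9 false among 144 calls. A gene not called may thus still differ. Every simulated library was drawn from the same wild-type means, so the retinal content that set wild-type library 2 apart was not imitated. Alternatives were DESeq2 1.42.0, limma 3.58.1 on log2(FPKM + 1) and log2(FPKM + 0.1), other scalings and filters, fewer libraries, a replicate block and a rod content term. Replicates differed by more than sampling noise, so none was counted as a copy. A result for 1 of the 15 rises is not reported here.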

Additional observations from a re-analysis of the deposited data

Results flagged for a closer look

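In 22 genes the knockout effect differed between RPE/choroid and retina by the interaction test of edgeR (adjusted p under 0.05). Each value below is the log2 effect in RPE/choroid minus that in retina. All 22 were also called without wild-type library 2.

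In 8 of the 22 genes the change was called in RPE/choroid. Npy differed by -1.78, with 7.37 ± 0.488 FPKM in knockout and 23.7 ± 1.5 FPKM in wild-type RPE/choroid, and 15.3 ± 0.886 and 14.9 ± 0.91 FPKM in knockout and wild-type retina. AA465934 differed by -2.80, with 3.16 ± 1.60 FPKM in knockout and 40.2 ± 6.47 FPKM in wild-type RPE/choroid, and 36.1 ± 20.9 and 69.0 ± 2.90 FPKM in knockout and wild-type retina. Car4 differed by -2.85 and was near 0.3 FPKM in both retinal groups. Bcat1 differed by -0.67, Acbd4 by -0.62, Pepd by -0.42 and Ptprz1 by 0.36. Nov differed by 3.45 and was at 0.0378 ± 0.0314 and 0.219 ± 0.103 FPKM in knockout and wild-type retina.

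In 10 genes the change was called in retina. Ppara differed by -3.96, with 3.16 ± 0.387 FPKM in knockout and 2.46 ± 0.175 FPKM in wild-type RPE/choroid, and 2.74 ± 0.218 and 0.134 ± 0.0182 FPKM in knockout and wild-type retina. Rpe65 differed by -1.61, Rgr by -1.67, Oca2 by -1.62, Arhgap29 by -1.03, Cftr by -2.17, Fgf2 by -2.08, its overlapping antisense gene Nudt6 by -1.59, Spata6 by -0.74 and Tm7sf3 by 0.503. The remaining 4 genes were called in neither tissue: Capn6 differed by -1.35, Ppp2r2c by 0.775, Mysm1 by 0.46 and Cdnf by 0.92.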

How the results depend on the processing

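Counts of called genes ranged between 7 and 217 higher and between 13 and 245 lower when single libraries were left out. They were 295 higher and 243 lower with DESeq2, 7 and 10 with limma at a pseudocount of 1 FPKM, 11 and 10 at 0.1 FPKM, and 10 and 23 with the 6 compared libraries alone. A rod content term gave 190 and 199, or 222 and 260 with 6 libraries. Alternatives added after seeing the data gave 234 and 338 with the 6 libraries less wild-type library 2, and 4 and 3 with the rod term and that library left out. Other scalings and filters stayed within 1.5 times the counts. The replicate block gave 13 higher and 15 lower, with 27 of 73 genes kept. Libraries of the same number deviated together with correlations of 0.194, -0.043 and 0.246, which is not over 0.1 in every pair, and 3 of the 6 libraries correlated best with their own number. The check set knockout against wild-type libraries and left the knock-in libraries out. The labels give no pairing, and whether the numbers pair the samples is not settled by this check.

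With single libraries left out, Abca4 lay between -0.93 and -0.53 on the log2 scale. It passed the threshold at log2 -0.53 without wild-type library 2, -0.79 with DESeq2, -0.74 with a rod term on 9 or on 6 libraries, and -0.53 with 6 libraries less wild-type library 2. The interaction called 337 genes without wild-type library 2 and 97 with a rod term. The cause of these shifts was not tested.

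Neurod4, Mmd2, Samd7, Ankrd33 and Gnb3 were negative with all 9 libraries and turned positive under some settings. Their lowest log2 values with a single library left out were -2.50, -0.85, -1.45, -2.00 and -0.68, and their highest are those without wild-type library 2. In that gene order the log2 values were 2.89, 2.33, 1.92, 1.91 and 1.57 without wild-type library 2, 0.88, 1.05, 0.57, 0.35 and 0.61 with a rod term, 0.93, 1.06, 0.59, 0.37 and 0.60 with a rod term on 6 libraries, 2.89, 2.33, 1.92, 1.91 and 1.57 on 6 libraries less wild-type library 2, 0.91, 1.49, 0.79, 1.37 and 0.98 with a rod term less that library, and 0.12, 0.77, 0.24, 0.24 and 0.50 with limma at 0.1 FPKM. Mmd2 and Gnb3 also reversed with limma at 1 FPKM, at 0.11 and 0.32, and with the block, at 0.26 and 0.23.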
